A study of Mus musculus with 10 samples.

Results

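The 7 genes described here are linked to the cytotoxic granule, the storage organelle with which killer lymphocytes destroy target cells. Parts of the granule are the proteases Gzmb, Gzma and Gzmc, the pore former Prf1, the proteoglycan Srgn and the membrane protein Nkg7. Klrd1 is a surface receptor chain and no part of the granule. The 7 genes were taken from the table of all genes by symbol, 7 of 23240. They had been chosen by their RPKM levels in all 10 libraries, so that their levels are a description and carry no test. RNA-seq was done on progenitors sorted from mouse bone marrow, in 5 groups of 2 libraries each. All mice carried Tg(vav-Cre), a transgene whose vav promoter drives Cre recombinase in blood cells. Those with 2 floxed alleles (Runx1fl/fl, labelled Runx1Δ/Δ) are called Runx1-deleted, and those with Runx1+/+ (labelled Runx1wt/wt) wild type. Every population was lineage-negative, Sca-1-negative, Kit-positive, CD41-negative and CD105-negative. Runx1-deleted XMP carried both CD16/32 and CD150. Granulocyte and monocyte progenitors (GMP) of Runx1-deleted and wild-type mice carried CD16/32 without CD150. Megakaryocyte and erythroid progenitors (MEP) of Runx1-deleted and wild-type mice carried CD150 without CD16/32. XMP were sequenced from Runx1-deleted mice only. The labels give neither age nor the number of animals, nor whether the 2 libraries of a group came from separate mice.

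Granzymes are serine proteases that enter a target cell through pores made by perforin, and serglycin holds them in the granule through its glycosaminoglycan chains. Natural killer (NK) cells and cytotoxic T cells are the classic source, but several of these genes are also used outside lymphocytes: serglycin packs the granules of mast cells, neutrophils and platelets, and mouse mast cells can make granzyme B. RUNX1 is a transcription factor of blood cells whose binding motif is read in short DNA as TGTGGT or TGCGGT.

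RefSeq promoters (GRCm38.p6, 250 bases before to 50 after the start) were at hand for 6 of the 7 genes, as 7 windows of 300 bases. The windows of Gzmb, Gzmc and Nkg7 are shown because Gzmb and Nkg7 carry the differences described below, and because Gzmc is the granzyme neighbour of Gzmb. Each is written 5′ to 3′ on the gene's own strand, and capitals mark TGTGGT or its reverse complement. Gzmb lies at chr14:56262285-56262584 on the minus strand, Gzmc at chr14:56234608-56234907 on the minus strand and Nkg7 at chr7:43436888-43437187 on the plus strand.
Gzmb: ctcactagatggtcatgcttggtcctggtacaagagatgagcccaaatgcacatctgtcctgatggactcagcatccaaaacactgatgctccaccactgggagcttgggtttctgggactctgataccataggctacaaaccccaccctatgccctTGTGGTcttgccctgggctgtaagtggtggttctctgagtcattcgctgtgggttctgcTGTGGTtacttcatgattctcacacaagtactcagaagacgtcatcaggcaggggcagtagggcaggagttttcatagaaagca
Gzmc: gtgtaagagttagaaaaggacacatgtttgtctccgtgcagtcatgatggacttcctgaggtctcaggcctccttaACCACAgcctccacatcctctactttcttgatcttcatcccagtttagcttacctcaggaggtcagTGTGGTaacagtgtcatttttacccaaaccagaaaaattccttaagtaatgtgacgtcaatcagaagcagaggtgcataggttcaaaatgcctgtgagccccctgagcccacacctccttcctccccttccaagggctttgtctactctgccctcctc
Nkg7: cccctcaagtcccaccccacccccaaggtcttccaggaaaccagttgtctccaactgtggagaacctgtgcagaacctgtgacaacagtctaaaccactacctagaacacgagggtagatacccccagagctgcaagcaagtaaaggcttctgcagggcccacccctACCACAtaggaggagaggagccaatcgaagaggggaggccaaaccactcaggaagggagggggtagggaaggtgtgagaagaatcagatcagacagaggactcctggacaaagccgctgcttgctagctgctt

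The Gzmb window held TGTGGT 2 times, beginning at -93 and -34 from the gene's start. The Gzmc window also held 2 matches, at -174 and -108. Nkg7 held 1 at -83, Gzma 1 at -50 and Prf1 1 at -130. Of the 2 Srgn windows, 1 had none and the other had 1 at -202. Over both strands, TGTGGT or TGCGGT stood in 6 of the 7 windows of these genes and in 22.4% of all 32851 promoters of that length; 2 or more matches stood in 2 of the 7 windows and in 2.86% of all. The GATA letters AGATAA or TGATAA were in none of the 7 windows and in 18.6% of all promoters. GAGGAA, as read by PU.1, was in 3 of the 7 windows (Gzma, Gzmc and Prf1) and in 28.3% of all. A match is a description of the letters; binding was not measured.

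Levels are given in RPKM, a read count scaled by gene length and library size, as the authors computed them. Whole read counts could be worked back from these values for every gene above 0. The libraries held 20.8 to 54.9 M reads, and a single read on 1 kb was worth 0.0182 to 0.0480 RPKM. Differences come from limma on log2(RPKM + 1), given with their standard error (SE). This scale understates the change of genes near or below 1 RPKM. The model covered the 10905 genes that reached 1 RPKM in 2 or more libraries. Of the 7 genes, 5 passed that filter, and Prf1 and Gzmc did not. Gzmb passed only through the wild-type GMP libraries. Klrd1 passed only through replicate 2 of Runx1-deleted GMP and replicate 2 of wild-type GMP. Gzma passed through XMP and GMP libraries and reached 1 RPKM in no MEP library. Runx1 itself, summed over the whole gene, ran from 36.8 to 85.9 RPKM in the 6 Runx1-deleted libraries, against 17.2 to 28.5 RPKM in the 4 wild-type libraries; a value over the whole gene does not check the loss of a floxed exon.

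Gzmb, granzyme B, cleaves after aspartate and starts apoptosis in the target cell. Its level was 0.169 and 0.292 RPKM in XMP, 0.296 and 0.214 RPKM in Runx1-deleted GMP, 45.8 and 33.4 RPKM in wild-type GMP, 0.0189 and 0.0334 RPKM in Runx1-deleted MEP, and 0.563 and 0.560 RPKM in wild-type MEP. Both wild-type GMP libraries thus stood far above the other 8, and wild-type MEP came next without overlapping any other group. Behind these values stood 10 and 18 reads in XMP, 23 and 14 reads in Runx1-deleted GMP, 2584 and 986 reads in wild-type GMP, 1 and 2 reads in Runx1-deleted MEP, and 29 and 36 reads in wild-type MEP.

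In GMP, Gzmb averaged 0.255 ± 0.0576 RPKM in Runx1-deleted libraries and 39.6 ± 8.76 RPKM in wild-type libraries (SD, n = 2 each), 155-fold lower with the deletion. The log2 difference was -5.00 ± 0.17. In MEP it averaged 0.0261 ± 0.0102 RPKM in Runx1-deleted libraries and 0.561 ± 0.002 RPKM in wild-type libraries (SD, n = 2 each). The MEP difference was -0.61 ± 0.17 on the log2 scale, and the pooled read rate, from 3 reads against 65, was 0.0474 of the wild-type rate (95% counting interval 0.00953 to 0.145). Counting intervals cover the sampling of reads only, not the spread between libraries. Gzmb in XMP overlapped Runx1-deleted GMP, with a log2 difference of -0.030 ± 0.17, and lay above Runx1-deleted MEP. Between the wild-type populations Gzmb was 70.5-fold higher in GMP than in MEP.

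Gzma, granzyme A, is the tryptase of the family. It had 1.63 and 1.10 RPKM in XMP, 0.892 and 1.23 RPKM in Runx1-deleted GMP, 1.49 and 1.47 RPKM in wild-type GMP, 0.274 and 0.161 RPKM in Runx1-deleted MEP, and 0.626 and 0.226 RPKM in wild-type MEP. These were at most 60 reads a library. XMP and both GMP groups lay above both MEP groups, and within MEP the genotypes overlapped. The Runx1-deleted GMP libraries were a little under the wild-type ones, with a log2 difference of -0.27 ± 0.18; it was 0.081 once the trend with gene length had been removed. In MEP the difference was -0.21 ± 0.18, and 0.093 without the length trend. Gzma in XMP exceeded Runx1-deleted MEP 6.26-fold, by 0.95 ± 0.18 on the log2 scale.

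Gzmc, a granzyme known from mouse lymphocytes, had 6 reads in all 10 libraries together. Of these, 1 came from Runx1-deleted GMP (0 and 0.0232 RPKM) and 5 from wild-type GMP (0.0269 and 0.205 RPKM). It had 0 reads in 7 libraries, where a count of 0 allows up to 3 reads, or 0.0585 to 0.0883 RPKM by library. Gzmc, Gzmd, Gzme, Gzmf, Gzmg and Gzmn are close copies of one another, so reads of this group may be shared between them.

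Prf1, perforin, makes the pores through which granzymes pass. It stayed under 1 RPKM in every library and so was not in the model. Its level was 0.489 and 0.782 RPKM in XMP, 0.585 and 0.813 RPKM in Runx1-deleted GMP, 0.330 and 0.397 RPKM in wild-type GMP, 0.117 and 0.265 RPKM in Runx1-deleted MEP, and 0.334 and 0.386 RPKM in wild-type MEP. Unlike Gzmb, Prf1 was highest in XMP and Runx1-deleted GMP, which overlapped each other and lay above all other libraries. In GMP the pooled read rate of the deleted libraries was 1.95 times that of the wild-type libraries (143 against 44 reads, 95% counting interval 1.38 to 2.80). In MEP the order was the other way, with 32 reads in Runx1-deleted libraries and 61 in wild-type libraries (rate ratio 0.539, 95% counting interval 0.340 to 0.839).

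**Figure D1:**
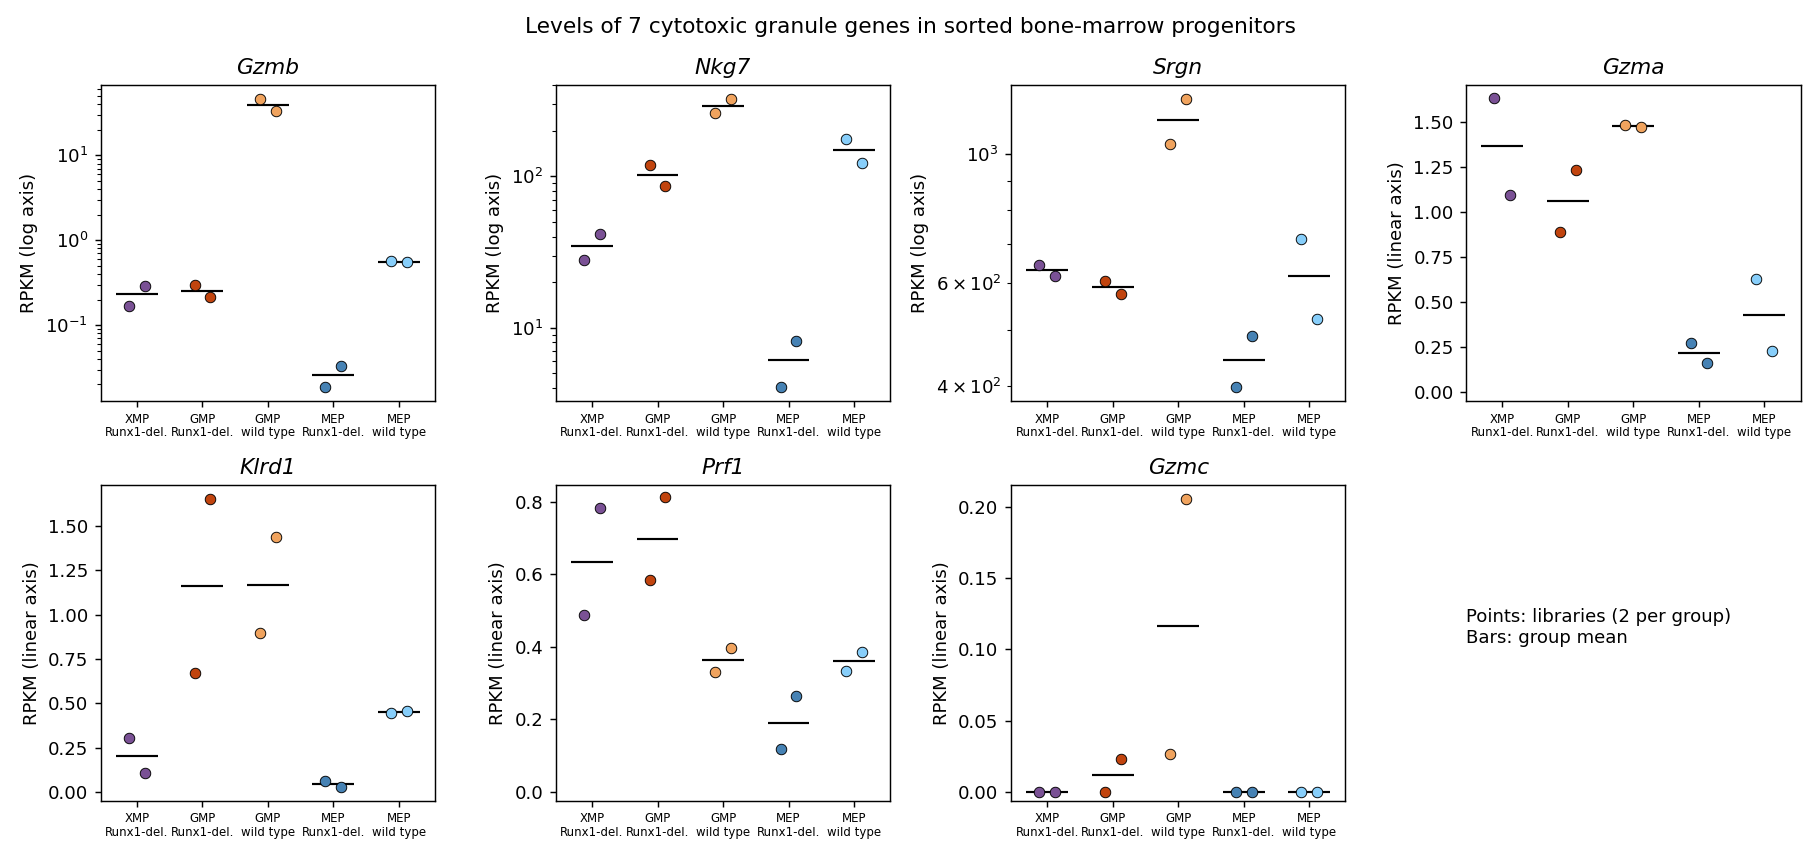
RPKM of the 7 genes by group, with 1 point per library and a bar at the group mean; Gzmb, Nkg7 and Srgn are on log axes and the others on linear axes. Gzmb stood at 33.4 and 45.8 RPKM in wild-type GMP and under 1 RPKM in all other libraries.

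Nkg7 encodes a membrane protein of cytotoxic granules that takes part in degranulation. It was abundant outside wild-type GMP too: 27.9 and 41.5 RPKM in XMP, 118 and 86.6 RPKM in Runx1-deleted GMP, 263 and 323 RPKM in wild-type GMP, 4.08 and 8.11 RPKM in Runx1-deleted MEP, and 178 and 122 RPKM in wild-type MEP. No neighbouring groups overlapped in the order wild-type GMP, wild-type MEP, Runx1-deleted GMP, XMP and Runx1-deleted MEP. All values rest on at least 124 reads.

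The genotype difference of Nkg7 was larger in MEP than in GMP. In MEP it averaged 6.10 ± 2.85 RPKM in Runx1-deleted libraries and 149.7 ± 39.4 RPKM in wild-type libraries (SD, n = 2 each), 24.6-fold lower with the deletion and -4.44 ± 0.31 on the log2 scale. In GMP it averaged 102 ± 22.3 RPKM in Runx1-deleted libraries and 293 ± 42.5 RPKM in wild-type libraries (SD, n = 2 each), 2.87-fold lower and -1.52 ± 0.31. The GMP effect minus the MEP effect was 2.92 ± 0.44 for Nkg7, against -4.39 ± 0.25 for Gzmb. The size of the Gzmb value owes much to the scale, because Gzmb was under 1 RPKM in MEP, and to its filter. As ratios of means, Gzmb was 155-fold lower with the deletion in GMP and 21.5-fold lower in MEP. The larger of the 2 ratios was thus in GMP for Gzmb and in MEP for Nkg7, as a description. Nkg7 in XMP was 2.95-fold lower than in Runx1-deleted GMP and 5.69-fold higher than in Runx1-deleted MEP.

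Srgn, serglycin, is the proteoglycan core on which granule proteases are stored. It ranked between 70 and 117 among all genes in every library. Its level was 646 and 619 RPKM in XMP, 606 and 576 RPKM in Runx1-deleted GMP, 1042 and 1240 RPKM in wild-type GMP, 400 and 488 RPKM in Runx1-deleted MEP, and 716 and 521 RPKM in wild-type MEP. Wild-type GMP lay above every other library and Runx1-deleted MEP below, while XMP and Runx1-deleted GMP each overlapped wild-type MEP. In GMP Srgn averaged 591 ± 20.9 RPKM in Runx1-deleted libraries and 1141 ± 141 RPKM in wild-type libraries (SD, n = 2 each), a log2 difference of -0.94 ± 0.24. In MEP the difference was -0.47 ± 0.24. Without the length trend these were -0.62 in GMP and -0.18 in MEP, and with quantile normalization -0.55 and -0.21.

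Klrd1, or CD94, pairs with NKG2 chains to form receptors of NK cells. It had 0.304 and 0.106 RPKM in XMP, 0.673 and 1.65 RPKM in Runx1-deleted GMP, 0.898 and 1.44 RPKM in wild-type GMP, 0.0618 and 0.0273 RPKM in Runx1-deleted MEP, and 0.444 and 0.458 RPKM in wild-type MEP. The GMP groups overlapped, with a log2 difference of -0.031 ± 0.21 whose sign changed under 3 of the alternatives, to 0.33 at most with the length trend removed. In MEP all 4 libraries were under 1 RPKM and the Runx1-deleted ones were lower, from 3 reads against 32 (rate ratio 0.0963, 95% counting interval 0.0189 to 0.308). Klrd1 in XMP was 5.68-fold lower than in Runx1-deleted GMP, by 0.81 ± 0.21 on the log2 scale, from 15 reads against 98. Klrd1 had passed the filter through GMP libraries only, so this is a description. The log2 difference ran from -2.01 to -0.48 under the alternatives.

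**Figure D2:**
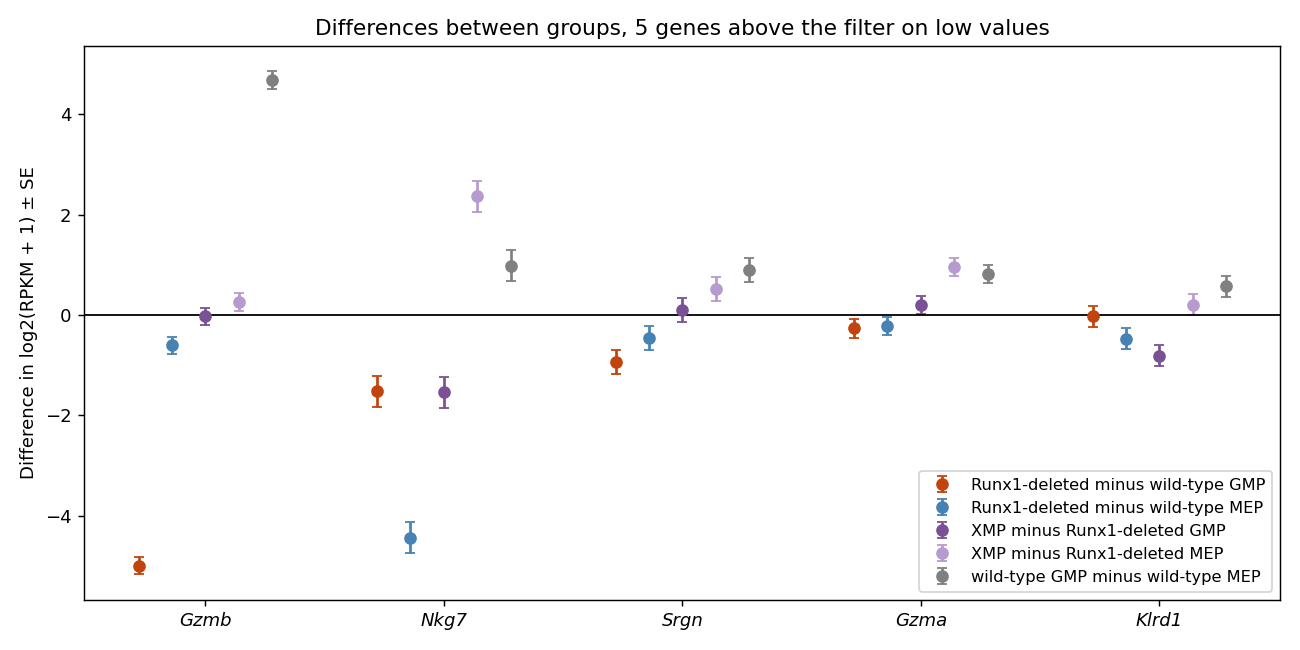
Differences in log2(RPKM + 1) between groups, with bars of 1 SE, for the 5 genes in the model. The lowest values are Gzmb in GMP (-5.00) and Nkg7 in MEP (-4.44), and the highest is Gzmb between wild-type GMP and wild-type MEP (4.68).

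Across the model, 5.22% of all genes passed an adjusted p under 0.05 in the GMP contrast, 2.07% as lower and 3.15% as higher. Among the 5 genes 3 did, all lower in Runx1-deleted GMP (Gzmb, Nkg7 and Srgn). In the MEP contrast 8.00% of all genes passed, 4.03% as lower and 3.97% as higher, and Nkg7 alone of the 5 did, being lower. The difference between the GMP and MEP effects passed for 1.74% of all genes (0.789% lower and 0.954% higher), and for Gzmb and Nkg7 in opposite directions. Between XMP and Runx1-deleted GMP 19.7% passed (9.90% lower and 9.75% higher), and Nkg7 and Klrd1 were lower. Between XMP and Runx1-deleted MEP 7.74% passed (2.60% lower and 5.14% higher), and Nkg7 and Gzma were higher. Between wild-type GMP and wild-type MEP 21.6% passed (9.83% lower and 11.7% higher), and 4 of the 5, all but Klrd1, were higher. Nothing is read from these counts, because the genes were chosen with these contrasts in view. Contrasts that share libraries are not independent of each other.

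The median log2 difference of the 5 genes was -0.94 in GMP and -0.47 in MEP, beside 0.049 and 0.029 over all genes of the model. These medians are the values of Srgn in GMP and of Klrd1 in MEP. Nothing is read from them, because the genes were chosen by these same levels. In GMP the 7 genes did not all differ in the same direction. Prf1 was higher in Runx1-deleted GMP, whereas Gzmb, Nkg7 and Srgn were lower, and Klrd1 overlapped between the genotypes.

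Srgn supplied most of the summed level of the 7 genes: 95.5% and 93.4% in XMP, 83.4% and 86.4% in Runx1-deleted GMP, 77.0% and 77.5% in wild-type GMP. In MEP its share was 98.9% and 98.3% in Runx1-deleted libraries and 80.0% and 80.8% in wild-type libraries. Set against Srgn of the same library, Nkg7 was at 4.31 and 6.70 RPKM per 100 RPKM of Srgn in XMP. It was at 19.5 and 15.0 in Runx1-deleted GMP and at 25.3 and 26.1 in wild-type GMP. In MEP it was at 1.02 and 1.66 in Runx1-deleted libraries and at 24.8 and 23.4 in wild-type libraries. The 4 wild-type libraries thus lay close together on this ratio, and the 6 Runx1-deleted libraries all lay below them. Gzmb per 100 RPKM of Srgn was 0.0488 and 0.0372 in Runx1-deleted GMP and 4.40 and 2.69 in wild-type GMP, so it was lower relative to Srgn as well.

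**Figure D3:**
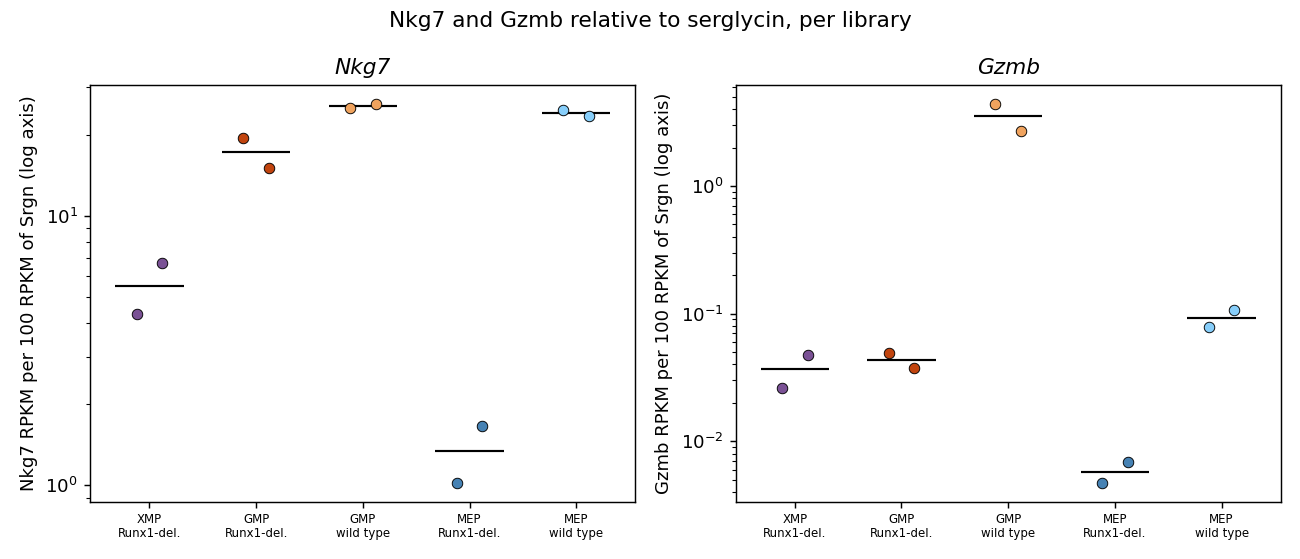
Nkg7 (left) and Gzmb (right) in RPKM per 100 RPKM of Srgn, on log axes, with 1 point per library and a bar at the group mean. Nkg7 lies between 23.4 and 26.1 in the 4 wild-type libraries, whereas Gzmb reaches 2.69 and 4.40 in wild-type GMP only.

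Gzmb and Gzmc sit on chromosome 14 in the chymase and granzyme locus, which holds 15 genes from Cma1 to Gzmb. Only 4 of the 15 reached 1 RPKM in any library: Cma1, Mcpt8, Ctsg and Gzmb. The other 11 stayed below, and Gzmd, Gzmg, Gzmn and Gzmf had 0 reads in all libraries. Ctsg, cathepsin G of neutrophil granules, averaged 22.5 RPKM in XMP, 1397 RPKM in Runx1-deleted GMP, 2116 RPKM in wild-type GMP, 3.59 RPKM in Runx1-deleted MEP and 4.89 RPKM in wild-type MEP. Mcpt8, a basophil protease, averaged 0.0689 RPKM in XMP, 8.90 RPKM in Runx1-deleted GMP, 199.9 RPKM in wild-type GMP, 0.0882 RPKM in Runx1-deleted MEP and 1.68 RPKM in wild-type MEP. Cma1, a mast cell chymase, averaged 2.70 RPKM in wild-type GMP and at most 0.105 RPKM in the other groups.

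In GMP, Mcpt8 fell by 4.34 ± 0.24 on the log2 scale with the deletion (limma, adjusted p = 2.74e-06). Cma1 had 0.169 and 0.0403 RPKM in Runx1-deleted GMP and 2.94 and 2.45 RPKM in wild-type GMP. Ctsg, between Mcpt8 and the granzymes in the order of the locus, did not pass the test there, with means of 1397 RPKM in Runx1-deleted GMP and 2116 RPKM in wild-type GMP (adjusted p = 0.0868). Like Gzmb, Cma1 had passed the filter through the wild-type GMP libraries only, which fixes its direction, so its difference is a description and no p is given. Ctsg in XMP was lower than in Runx1-deleted GMP by 5.90 on the log2 scale (limma, adjusted p = 3.76e-08), whereas Gzmb overlapped between these groups. Gzmb reached at most 0.292 RPKM in XMP and 0.296 RPKM in Runx1-deleted GMP, so the scale left it little room to differ.

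**Figure D4:**
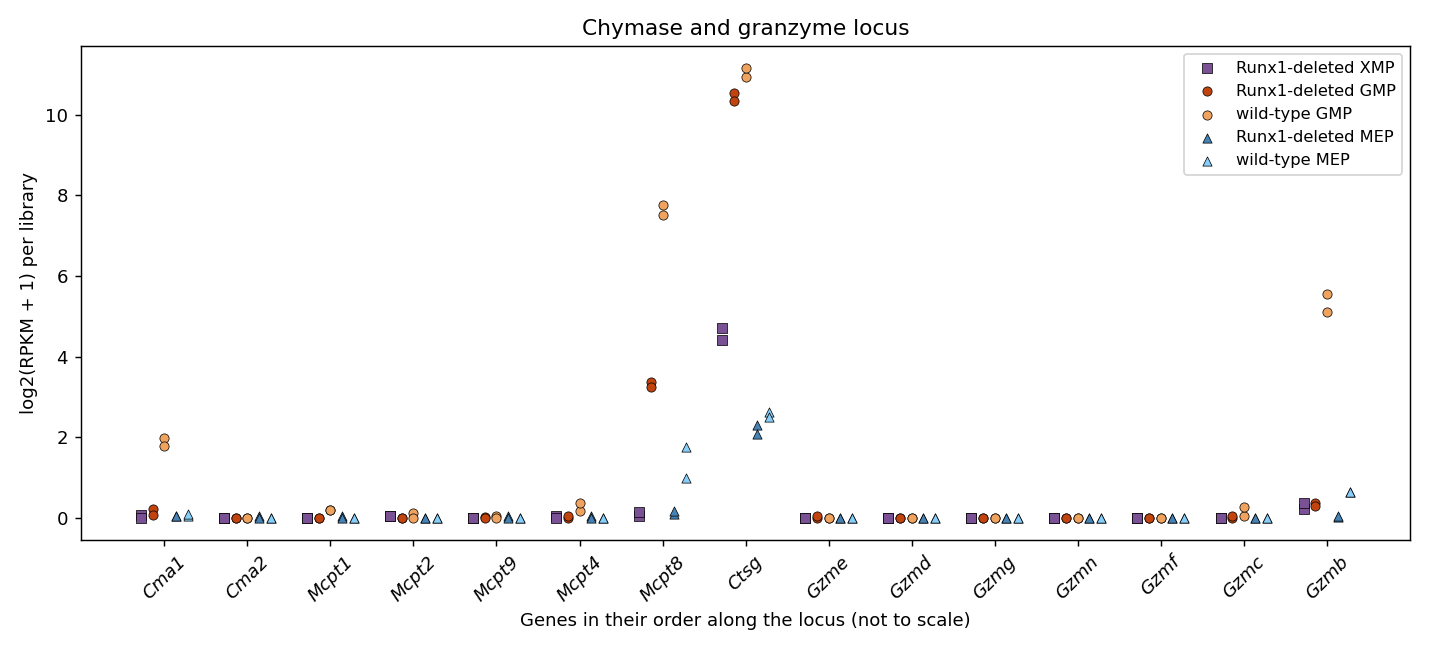
Log2(RPKM + 1) of the 15 genes of the chymase and granzyme locus, in their order along the chromosome, with 1 point per library. Mcpt8 and Ctsg lie higher than Gzmb in wild-type GMP, and the genes from Gzme to Gzmc lie at or near 0 in all groups.

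The gene whose log2 levels ran closest to each of the 5 was found by the root mean square distance over the 10 libraries, after centring each gene. For Gzmb, whose own range was 5.52 log2 units, the nearest were Rnase12 (0.73), Fcer1a (0.74) and Chdh (0.88). Fcer1a, the alpha chain of the IgE receptor of mast cells and basophils, had 0.0233 to 0.425 RPKM in XMP, 0 to 0.106 RPKM in Runx1-deleted GMP, 10.2 to 11.8 RPKM in wild-type GMP, 0.0261 to 0.0461 RPKM in Runx1-deleted MEP and 0.794 to 1.10 RPKM in wild-type MEP. For Nkg7, with a range of 6.0, they were Cd63 (0.59), Igfbp4 (0.80) and Ffar2 (0.80). For Klrd1, with a range of 1.37, they were Klrb1c (0.144), the gene of the NK1.1 antigen, Acot9 (0.155) and Chst14 (0.158), at nearly the same distance. Gzma lay nearest to Rab32 (0.13) and Srgn to N4bp3 (0.16), over ranges of 1.18 and 1.63. Among the genes themselves Gzmb and Nkg7 were 1.67 apart, and Gzma and Srgn, the closest pair, 0.34. A short distance says little for a gene of small range.

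Markers of other cell types were read beside these levels, since a sorted sample can hold other cells. In bulk RNA, fewer cells of a type and less RNA per cell cannot be told apart. The 24 NK and T cell markers summed to 4.61 to 7.90 RPKM in XMP, 14.4 to 29.0 RPKM in Runx1-deleted GMP, 14.7 to 20.6 RPKM in wild-type GMP, 3.80 to 4.10 RPKM in Runx1-deleted MEP and 9.31 to 10.4 RPKM in wild-type MEP. Of these markers 1 to 10 reached 1 RPKM in a library and 0 to 6 were at 0. Ncr1, a receptor of NK cells, had 0.392 and 0.235 RPKM in XMP, 1.07 and 2.70 RPKM in Runx1-deleted GMP, 0.549 and 0.918 RPKM in wild-type GMP, 0.0915 and 0.0484 RPKM in Runx1-deleted MEP, and 0.0751 and 0.166 RPKM in wild-type MEP. In all 5 groups the library with more Ncr1 also had more Klrd1. Klrd1 was nearly tied in wild-type MEP (0.444 and 0.458 RPKM), however, and rested on 2 and 1 reads in Runx1-deleted MEP. Between groups the 2 genes did not always run alike: XMP had more Ncr1 than wild-type MEP but less Klrd1. Cd3e, of the T cell receptor complex, was at 0 in 3 libraries and at 0.134 RPKM at most. The part of NK cells in the levels of Klrd1, Gzma, Prf1 and Gzmb was not tested.

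The 13 basophil and mast cell markers summed to 208 to 214 RPKM in XMP, 405 to 427 RPKM in Runx1-deleted GMP, 738 to 813 RPKM in wild-type GMP, 129 to 162 RPKM in Runx1-deleted MEP and 246 to 256 RPKM in wild-type MEP. Of these 4 to 10 reached 1 RPKM in a library and 1 to 4 were at 0. Like Gzmb and Nkg7, the sum was lower in the Runx1-deleted libraries of both GMP and MEP. The same held for the neutrophil and monocyte sum given below, so this is not particular to basophil and mast cell markers. A sum of plasmacytoid dendritic cell markers was lower in Runx1-deleted GMP (174 to 221 against 262 to 282 RPKM) and overlapped in MEP. A sum of B cell markers overlapped in GMP and was lower in Runx1-deleted MEP (7.45 to 8.40 against 12.8 to 16.3 RPKM). Prss34, a basophil protease, had 0.236 and 0.0189 RPKM in XMP, 0.434 and 0.303 RPKM in Runx1-deleted GMP, 243 and 220 RPKM in wild-type GMP, 0.110 and 0.0971 RPKM in Runx1-deleted MEP, and 4.36 and 2.06 RPKM in wild-type MEP. Cpa3, the mast cell carboxypeptidase, went the other way in GMP, with 228 and 213 RPKM in Runx1-deleted libraries and 135 and 95.5 RPKM in wild-type libraries. The part of basophil or mast cell precursors in Gzmb and Nkg7 was not tested.

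The 10 neutrophil and monocyte markers summed to 160 to 193 RPKM in XMP, 7855 to 8217 RPKM in Runx1-deleted GMP, 12399 to 12504 RPKM in wild-type GMP, 41.7 to 42.7 RPKM in Runx1-deleted MEP and 44.2 to 60.0 RPKM in wild-type MEP, which sets GMP apart by its label. The 12 megakaryocyte and erythroid markers were high in XMP and in both MEP groups (1707 to 2278 RPKM) and lay at 64.7 to 162 RPKM in GMP. Sequencing lane and genotype cannot be told apart in GMP, where both Runx1-deleted libraries came from lane 5 and the wild-type ones from lanes 3 and 2. The libraries also differed in how level ran with gene length. The genes of the longest quartile minus those of the shortest deviated from the mean of all libraries by a median log2 of 0.27 and 0.19 in Runx1-deleted GMP, and -0.28 and -0.34 in wild-type GMP. The largest deviation was in MEP, at -0.86 in wild-type replicate 1 (lane 3), against 0.13 in wild-type replicate 2 (lane 5). Runx1-deleted MEP had -0.0020 and 0.26. With this trend removed, the GMP difference was -4.84 for Gzmb and -1.14 for Nkg7, and the MEP difference of Nkg7 was -4.12. Within lane 5, MEP gave 4.08 and 8.11 RPKM of Nkg7 in Runx1-deleted libraries and 122 RPKM in the wild-type library. Within the same lane Gzmb had 0.0189 and 0.0334 RPKM in Runx1-deleted MEP and 0.560 RPKM in wild-type MEP.

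**Figure D5:**
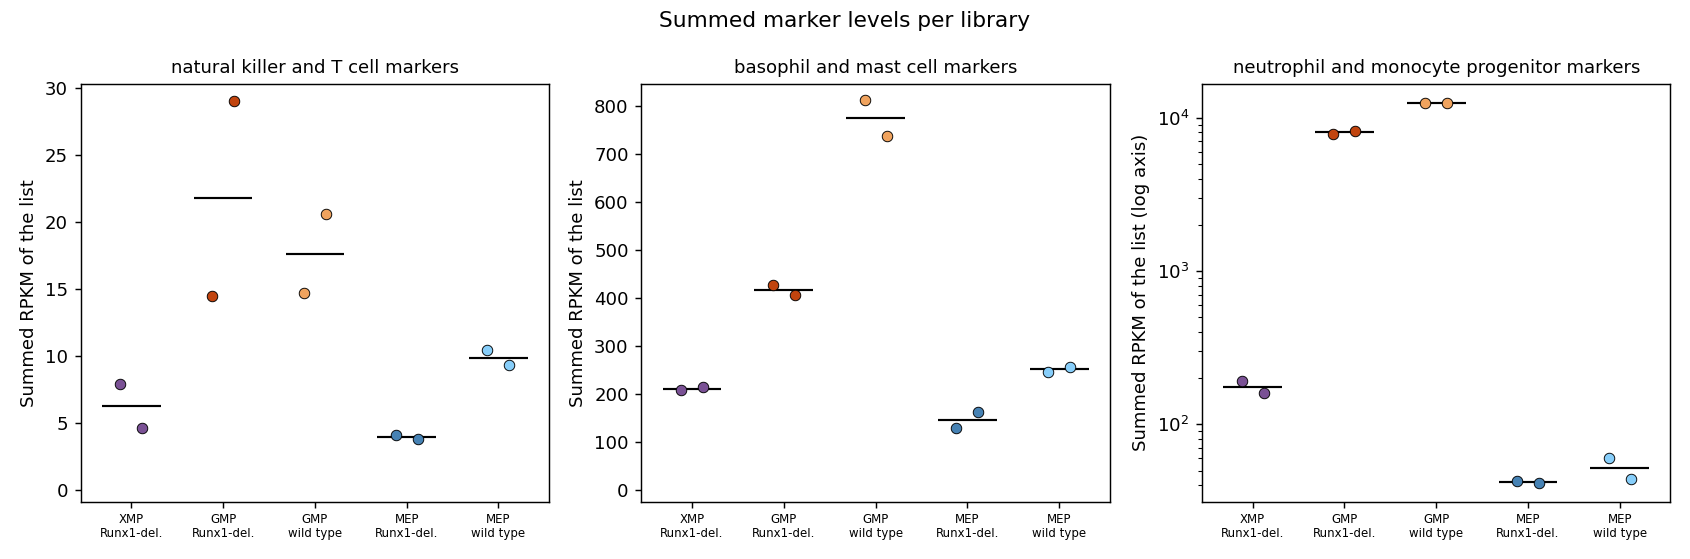
Summed RPKM of 3 marker lists by group, with 1 point per library and a bar at the mean; the neutrophil and monocyte panel has a log axis. The basophil and mast cell sum is 405 to 427 RPKM in Runx1-deleted GMP and 738 to 813 RPKM in wild-type GMP.

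Other genes of granzyme storage, release and inhibition were read from 6 lists of 63 genes, of which 62 were in the table and 47 in the model. The lists were chosen with earlier results of these data known. The shares called, here and in the paragraphs below, are therefore a description, and no enrichment is read from them. In GMP 1 was called higher and 5 lower with the deletion, 12.8% of the 47 beside 5.22% of all genes. The lower ones were Mcpt8, Cd63, Chsy1, Chpf and Cma1, of which Cma1 owed its place in the model to wild-type GMP, and the higher one was Snap23. Cd63, a tetraspanin of granule and lysosome membranes, had 110.7 and 63.2 RPKM in Runx1-deleted GMP and 386 and 469 RPKM in wild-type GMP, and fell by 2.33 ± 0.27 (limma, adjusted p = 0.000552). Chsy1 and Chpf build chondroitin chains and Snap23 works in membrane fusion. Their adjusted p of 0.0427, 0.0465 and 0.0453 went to as much as 0.350, 0.298 and 0.327, and all 3 calls ended when any 1 of the 4 GMP libraries was left out.

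In MEP 7 of the 47 were called higher and 7 lower with the deletion, 29.8% beside 8.00% of all genes. Many of these calls depended on the settings. Those of M6pr, Stx11, Chst11 and Chst15, all higher, each ended under 12 of 19 alternatives. Coro1a and Ctsc, both lower, ended under 11 and 7 of 19. The calls of Cd63, Serpinb1a, Serpinb9b and Snap23 held under all alternatives run. Cd63 had 9.56 and 11.8 RPKM in Runx1-deleted MEP and 96.6 and 75.9 RPKM in wild-type MEP, and fell by 2.90 ± 0.27 (limma, adjusted p = 0.00011). Cd63 thus fell in both populations, as the level of Nkg7 was lower in both. Serpinb1a, an inhibitor of neutrophil serine proteases, fell by 1.41 ± 0.16 (adjusted p = 0.000285). Serpinb9b, a mouse paralog of the granzyme B inhibitor Serpinb9, had 1.69 and 1.91 RPKM in Runx1-deleted MEP and 0.157 and 0.183 RPKM in wild-type MEP. It passed the filter through Runx1-deleted MEP only, which fixes its direction, so it is among the 7 higher calls as a description and no p is given. Snap23 rose by 1.18 ± 0.20 (adjusted p = 0.00386).

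Serpinb9 inhibits granzyme B. It had 2.65 and 2.67 RPKM in Runx1-deleted GMP and 1.54 and 1.38 RPKM in wild-type GMP, a log2 difference of 0.57 ± 0.17 that missed the threshold (limma, adjusted p = 0.0842). Its level was lowest in wild-type GMP, where Gzmb was highest. Of the 7 other granzymes only Gzmm, metase, reached the model, with 0.666 and 0.863 RPKM in Runx1-deleted MEP and 1.69 and 1.40 RPKM in wild-type MEP. Gzmm passed the filter through wild-type MEP only, which fixes its direction. It is thus among the 7 lower MEP calls as a description, and that call ended under 17 of 18 alternatives.

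XMP and Runx1-deleted GMP differed in 23 of the 47 genes, 10 higher and 13 lower in XMP, or 48.9% beside 19.7% of all genes. Of the 5 granzyme inhibitors in the model 4 were called higher and 1 lower. Serpinb6b rose by 1.15 ± 0.17 (limma, adjusted p = 0.000417) and Serpinb1a fell by 1.95 ± 0.16 (adjusted p = 4.36e-06), and both calls held under all alternatives run. Serpinb9 was higher by 0.76 ± 0.17 (adjusted p = 0.0078), a call that ended without Runx1-deleted GMP replicate 1 (0.0735), Runx1-deleted GMP replicate 2 (0.0678) or XMP replicate 1 (0.102). Serpinb6a was higher by 0.66 ± 0.18 (adjusted p = 0.0197), a call that ended without Runx1-deleted GMP replicate 1 (0.0595) or 2 (0.217) or XMP replicate 1 (0.112) or 2 (0.119). Serpinb9b, the remaining one, had 0.471 and 0.297 RPKM in XMP and 0 and 0.0337 RPKM in Runx1-deleted GMP. Of the release machinery, Stx11, a syntaxin of granule fusion, rose by 2.43 ± 0.22 (adjusted p = 1.11e-05), and Unc13d, Munc13-4, which primes granules, by 0.94 ± 0.17 (adjusted p = 0.00221). Rab27a, which docks granules, fell by 1.30 ± 0.25 (adjusted p = 0.00287), and its partner Sytl1 fell by 1.64 ± 0.16 (adjusted p = 2.58e-05). Cst7, cystatin F, which restrains the cathepsins that activate granzymes, had 76.9 and 86.1 RPKM in XMP and 187 and 159 RPKM in Runx1-deleted GMP and fell by 1.07 ± 0.19 (adjusted p = 0.00174).

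XMP and Runx1-deleted MEP differed in 8 of the 47, 5 higher and 3 lower in XMP (17.0% beside 7.74% of all genes). Cst7 rose by 1.41 ± 0.19 (limma, adjusted p = 0.00164), Serpinb1a by 1.55 ± 0.16 (adjusted p = 0.000304) and Ctsg by 2.35 ± 0.18 (adjusted p = 9.53e-05). Serpinb9b, among the 3 lower calls, had 0.471 and 0.297 RPKM in XMP and 1.69 and 1.91 RPKM in Runx1-deleted MEP, the group through which it had passed the filter. In wild-type mice 17 of the 47 were called higher and 8 lower in GMP than in MEP (53.2% beside 21.6% of all genes). Cma1 among the higher and Gzmm among the lower calls had their direction fixed by the filter. Cst7 was higher in wild-type GMP by 2.19 ± 0.19 (adjusted p = 7.78e-06) and Rab27a by 1.72 ± 0.25 (adjusted p = 0.000393), and Stx11 was lower by 1.56 ± 0.22 (adjusted p = 0.000315). The lists are described by these counts and were not tested as sets.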

How the data were processed

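RNA of 10 libraries of sorted bone-marrow progenitors was extracted with peqGOLD TriFast and made into libraries with a TruSeq V2 LT or NEBNext Ultra kit, per the labels' protocols; the kit of each library is not recorded. The deposited table gives the authors' RPKM for 23240 genes in each library, and p-values and FDR-corrected p-values of the authors' Baggerley test, per the file headers, which were not used here. Per the submitters' processing notes the build was mm9. Aligner and counter: not given in the sources used here. Lanes come from the column headers.

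The 7 genes and all gene lists were chosen with earlier results of these data known. Groups were taken from the labels. The design held a branch for counts and one for RPKM, and the RPKM branch applied. The 10905 genes reaching 1 RPKM in 2 or more libraries were fitted as log2(RPKM + 1) with limma 3.58.1 in R 4.3.3, with trend, 1 mean per group over all 10 libraries and 5 residual degrees of freedom, and Benjamini-Hochberg adjustment over all 10905 genes; the threshold was an adjusted p under 0.05. The fit was tested on simulated data. For the 7 genes no p is given. P-values of other genes measure only the spread between these libraries, which may be technical.

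Reads were worked back from RPKM: for 19336 genes every value was whole within 0.01 read, and 3904 genes were at 0 throughout. Library totals ran from 20.8 to 54.9 M reads, with 75.2% to 83.2% in genes. Rate ratios pool the reads of a group and have exact 95% intervals. Named genes were the 7 genes, the locus neighbours, the 3 nearest patterns, the defining markers and the called list genes of smallest p. The text prints a selection. Of 63 list genes Vamp7 was not matched. Alternatives were a pseudocount of 0.1, a mean of at least 5 RPKM, no filter, quantile normalization, no trend, only the groups compared, lanes 4 and 5 only, removal of the trend with gene length, a replicate block, and leaving out each library.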

Additional observations from a re-analysis of the deposited data

Results flagged for a closer look

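For 4 genes of the pathway lists the effect of Runx1 deletion passed as different between GMP and MEP by the interaction term of the model, which covers 10905 genes. For 2 of them the filter on low values had fixed the direction, and their values are a description. Cma1 passed that filter through wild-type GMP only, lay at 1 to 3 reads in each of the 4 MEP libraries, and had a GMP effect minus MEP effect of -1.71 on the log2 scale. Serpinb9b passed through Runx1-deleted MEP only, had 0 RPKM in both wild-type GMP libraries, and had a difference of -1.24. For Mcpt8 the difference was -3.09 (limma, adjusted p = 0.00119), and with a pseudocount of 0.1 the adjusted p was 0.453. Serpinb1a gave 1.08 (limma, adjusted p = 0.0332), a call that ended under 10 of 18 alternatives.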

How the results depend on the processing

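Of 543 recomputed differences of the 5 genes in the model, 484 moved by less than 1 SD between replicates and 59 by more. Of 69 named calls of list genes, 44 held under all alternatives run and 0 changed sign. The named calls were those of smallest p in each list, contrast and direction, so some weaker calls are not in this count. Some calls of Cma1, Serpinb9b and Gzmm, whose direction the filter had fixed, are in it.

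The count of called genes depended on the settings. In the GMP contrast (569) it was 196 with a mean of at least 5 RPKM and 1925 with only the groups compared; the list genes called (6) were then 2 with the stricter filter. In MEP (872) it was 550 with no filter, 412 with a mean of at least 5 RPKM, 340 with only the groups compared and 1357 with the length trend removed; list genes (14) were 6, 8, 6 with the first 3 of these, and 6 in lanes 4 and 5. For the difference of effects (190) it was 80 with a pseudocount of 0.1, 63 with a mean of at least 5 RPKM and 337 with the length trend removed; list genes (4) were 1 and 8 under the last 2. Between XMP and Runx1-deleted GMP (2143) it was 1200 with a mean of at least 5 RPKM and 3216 with only the groups compared. Between XMP and Runx1-deleted MEP (844) it was 486 with no filter, 1611 with the length trend removed and 1542 in lanes 4 and 5; list genes (8) were 13 with the trend removed. Between wild-type GMP and MEP (2352) it was 1380 with a mean of at least 5 RPKM, and list genes (25) were 16. The causes were not tested.

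Leaving out 1 library gave 233 (without wild-type GMP replicate 2) to 1729 (without wild-type MEP replicate 2) genes in GMP and 3 to 10 list genes, and in MEP 361 (without Runx1-deleted MEP replicate 2) to 3427 (without wild-type MEP replicate 2) genes and 4 to 21 list genes. For the difference of effects it gave 55 to 475 genes and 3 to 8 list genes, between XMP and Runx1-deleted GMP 1381 to 2790 and 16 to 27, between XMP and Runx1-deleted MEP 305 to 1462 and 5 to 12, and between wild-type GMP and MEP 1636 to 3315 and 19 to 26. A lone remaining library was assumed to vary like the other groups.

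Same-numbered libraries deviated together in some pairs of groups and not in others (correlations -0.475 to 0.782 over 10 pairs of groups, 3 over 0.1). In the column headers the serial numbers of the libraries run opposite to the replicate numbers in Runx1-deleted GMP only. The correlations and the replicate block used the replicate numbers, so neither can settle whether libraries were paired. The labels state no pairing. With a replicate block 552 genes were called in GMP, 844 in MEP, 173 for the difference of effects, 2120 and 801 for XMP against Runx1-deleted GMP and MEP, and 2313 between the wild-type groups. Lanes 4 and 5 hold no wild-type GMP library, so no value was possible there for contrasts that need one. Depth limits Gzmc, Prf1, Klrd1 and Gzma, with at most 77 reads in a library.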
